A study of Mus musculus with 13 samples.

Results

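The 37 genes described here are type I interferon stimulated genes, a group fixed as a list of mouse gene symbols and found by symbol among the 52636 genes of the series. All 37 were found, and all 37 passed the filter on low counts that left 17086 genes for testing. They were measured by RNA-Seq in brain microglia of 13 mice aged 14 to 15 months, 7 of them PS2APP;Trem2wt and 6 PS2APP;Trem2ko. Each genotype had 5 females, and the males were 2 in PS2APP;Trem2wt and 1 in PS2APP;Trem2ko. Both groups carried the PS2APP transgenes, human presenilin 2 and human amyloid precursor protein with familial Alzheimer's disease mutations, so every animal came from a β-amyloidosis model and no mouse without the transgenes was compared here. PS2APP;Trem2wt mice had normal Trem2 alleles. PS2APP;Trem2ko mice carried the Trem2tm1(KOMP)Vlcg null allele, which was made on a C57BL/6N background and crossed into PS2APP mice. TREM2 is a lipid-binding receptor of microglia and macrophages, and the allele removes it from every cell. Cells were taken from cortex and hippocampus on ice and sorted as CD11b+, CD45+, Ccr2-, Ly6g-, a gate that keeps microglia and perivascular macrophages.

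Type I interferons are secreted proteins that nearly all cells can make when sensors of foreign or misplaced nucleic acid are triggered. They bind the receptor formed by Ifnar1 and Ifnar2, whose kinases Jak1 and Tyk2 phosphorylate STAT proteins. The complex ISGF3, with Stat2 and Irf9 among its subunits, then binds the interferon stimulated response element (ISRE) in the promoters of its target genes. The products include the sensors and transcription factors themselves, enzymes and membrane proteins that block viruses, and the brake Usp18. Microglia with raised levels of these genes have been described in aged brains and around amyloid plaques.

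The start-site windows of the genes were read first, for the element that ISGF3 binds. RefSeq (GRCm38.p6) gave windows of 300 bases, 250 before and 50 after a start, for 28 of the 37 genes, 33 windows in all. The ISRE core searched was GAAANNGAAA, on both strands, and overlapping matches were counted. It stood in 19 of the 33 windows (57.6%), and in 1126 of all 32817 windows of the same length (3.43%). The shorter GAS core TTCNNNGAA, the element associated with interferon gamma, stood in 4 of the 33 (12.1%) and in 8.29% of all windows. A match is a description of letters, not proof of a binding site. The windows below are those of genes whose values are given by mouse, with the ISRE core in capitals. Isg15 is shown for its 3 overlapping cores, Ifit3 and Ifit3b because their windows are nearly the same, Cxcl10 and Bst2 for genes of widely different spread, and Irf7 as a window without these letters.
Isg15, chr4:156200769-156201068, minus strand: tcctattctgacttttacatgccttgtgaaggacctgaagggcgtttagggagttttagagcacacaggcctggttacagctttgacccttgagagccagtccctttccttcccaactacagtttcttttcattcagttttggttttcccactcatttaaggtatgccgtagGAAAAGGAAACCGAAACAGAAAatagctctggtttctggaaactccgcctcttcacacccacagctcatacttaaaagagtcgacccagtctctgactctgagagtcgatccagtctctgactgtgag
Ifit3, chr19:34583279-34583578, plus strand: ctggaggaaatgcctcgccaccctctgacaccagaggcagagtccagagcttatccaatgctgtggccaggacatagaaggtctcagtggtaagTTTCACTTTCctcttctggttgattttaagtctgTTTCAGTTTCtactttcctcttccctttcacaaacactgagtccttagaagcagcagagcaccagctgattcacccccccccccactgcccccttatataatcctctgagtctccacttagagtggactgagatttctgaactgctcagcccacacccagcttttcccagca
Ifit3b, chr19:34607707-34608006, plus strand: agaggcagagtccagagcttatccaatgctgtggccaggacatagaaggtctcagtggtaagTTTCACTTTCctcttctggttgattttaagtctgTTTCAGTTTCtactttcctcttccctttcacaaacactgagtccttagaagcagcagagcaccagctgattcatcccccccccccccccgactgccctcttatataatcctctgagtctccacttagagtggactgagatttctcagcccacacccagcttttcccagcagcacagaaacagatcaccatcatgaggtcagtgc
Cxcl10, chr5:92348840-92349139, minus strand: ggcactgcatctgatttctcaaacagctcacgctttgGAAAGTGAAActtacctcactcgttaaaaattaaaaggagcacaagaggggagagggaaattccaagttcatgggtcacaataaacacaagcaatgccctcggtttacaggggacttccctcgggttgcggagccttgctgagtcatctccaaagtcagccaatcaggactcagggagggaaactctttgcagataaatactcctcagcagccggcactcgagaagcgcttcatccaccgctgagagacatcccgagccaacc
Bst2, chr8:71537423-71537722, minus strand: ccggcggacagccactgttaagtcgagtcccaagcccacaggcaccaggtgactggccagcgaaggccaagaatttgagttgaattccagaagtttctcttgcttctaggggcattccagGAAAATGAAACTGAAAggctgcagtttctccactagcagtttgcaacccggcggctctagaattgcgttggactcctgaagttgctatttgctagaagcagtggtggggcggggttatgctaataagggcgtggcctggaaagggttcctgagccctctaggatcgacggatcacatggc
Irf7, chr7:141266375-141266674, minus strand: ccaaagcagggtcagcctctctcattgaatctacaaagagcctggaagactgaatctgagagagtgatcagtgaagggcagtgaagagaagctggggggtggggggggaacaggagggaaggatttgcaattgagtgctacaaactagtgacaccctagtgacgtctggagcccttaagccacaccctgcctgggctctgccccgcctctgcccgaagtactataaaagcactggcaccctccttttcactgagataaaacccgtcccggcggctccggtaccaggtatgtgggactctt
No promoter entry was used for Dhx58, Ifi204, Ifi27l2a, Mx1, Mx2, Parp14, Rtp4, Usp18 and Zbp1.

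Total counts per mouse lay between 26120961 and 114857155 in PS2APP;Trem2wt and between 41567025 and 120569609 in PS2APP;Trem2ko mice. At these depths 3 counts correspond to a CPM (counts scaled to library size) of 0.0249 to 0.115, and the lowest count of any of the 37 genes in any mouse was 55, in Ifi44. Levels are given as nRPKM, the authors' RPKM (reads scaled to gene length and library size) adjusted by a size factor. Trem2 stood between 818 and 1244 nRPKM in the PS2APP;Trem2wt and between 0.393 and 2.29 in the PS2APP;Trem2ko mice, as labelled. All 10 microglia markers checked, P2ry12 and Tmem119 among them, had a mean of at least 1 nRPKM, and their sum lay between 14672 and 18213 in every mouse. In such bulk samples more cells expressing a gene and more RNA per cell cannot be told apart.

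The median pooled SD of log2(nRPKM + 0.1) between mice of a genotype was 0.60 over the 37 genes. Their median fitted log2 fold change between genotypes was smaller, at 0.46. For some genes the fold change was the larger, as for Trim30a (0.35 against an SD of 0.21) and Mx1 (0.90 against 0.60). Fold changes are PS2APP;Trem2ko over PS2APP;Trem2wt, fitted to the counts with edgeR, and p-values were adjusted over all 17086 genes by the Benjamini-Hochberg method. None of the 37 genes passed an adjusted p of 0.05 in either direction, where 2.04% of all genes tested did and 0.503% did as higher. At an unadjusted p of 0.05 in the same edgeR fit, 7 of the 37 were higher (all genes tested, 7.29%) and 0 were lower (all genes tested, 7.56%). These 7 were Trim30a, Mx1, Parp14, Ifit3b, Rsad2, Cxcl10 and Ifit3. The fitted log2 fold change was above 0 for 35 of the 37 genes (all genes tested, 50.7%), and for the same number after scaling with RLE size factors. Its median was 0.46 over the 37 genes and 0.00389 over all genes tested, and it ran from -0.11 for Ifi27l2a to 1.25 for Cxcl10. DESeq2 called 2 of the 37 higher, Mx1 at an adjusted p of 0.0431 and Trim30a at 0.0478 (all genes tested, 1.9%).

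The levels of the genotypes overlapped for all 37 genes, while they did not overlap for 1.62% of all genes tested. At most 4 of 6 PS2APP;Trem2ko mice stood above every PS2APP;Trem2wt mouse, in Parp14. For 33 of the 37 genes the log2 ratio of medians lay below the fitted log2 fold change. The PS2APP;Trem2ko median was the higher for 32 of the 37 genes, with a median log2 ratio of medians of 0.20. Isg15, Slfn2, Bst2, Ifitm3 and Ifi27l2a had the lower median in PS2APP;Trem2ko mice.

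**Figure D1:**
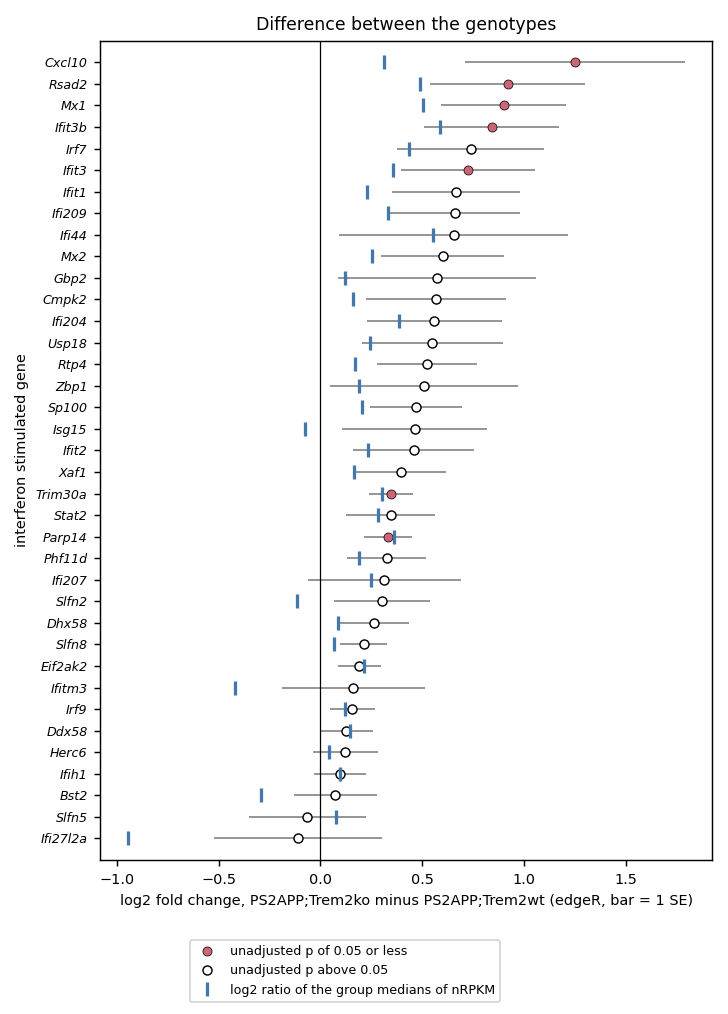
Log2 fold change of each of the 37 genes between PS2APP;Trem2ko (6) and PS2APP;Trem2wt (7) mice (x axis, no unit) with genes on the y axis, from edgeR with bars of 1 SE. Filled points mark the 7 genes at an unadjusted p of 0.05 or less, and blue ticks, the log2 ratio of group medians, lie left of the fitted value for most genes.

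A few mice carried the high levels. PS2APP;Trem2ko mice 2 and 3 and PS2APP;Trem2wt mouse 3 were the 3 highest of the 13 mice in 33 of the 37 genes, an arrangement found for 1.56% of all genes tested. The 3 mice were picked from the levels of these same 37 genes, so this count is a description and the share beside it is no test. PS2APP;Trem2ko mouse 2 had the highest level in 30 genes, PS2APP;Trem2ko mouse 3 in 6 and PS2APP;Trem2wt mouse 3 in 1, Slfn5. At the other end PS2APP;Trem2wt mouse 7 was the lowest in 20 genes and PS2APP;Trem2wt mouse 2 in 6. Averaged over the 37 genes, log2(nRPKM + 0.1) stood 1.08 above the mean of all mice in PS2APP;Trem2ko mouse 2, 0.86 above in PS2APP;Trem2ko mouse 3 and 0.63 above in PS2APP;Trem2wt mouse 3. The other 4 PS2APP;Trem2ko mice lay between -0.34 and -0.00625 on this scale, within the range of -0.73 to 0.01 of the other 6 PS2APP;Trem2wt mice. Total counts of these 3 mice, from 41567025 to 79883820, lay inside the range of the others. Median deviations were -0.11 in PS2APP;Trem2wt and -0.09 in PS2APP;Trem2ko mice.

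**Figure D2:**
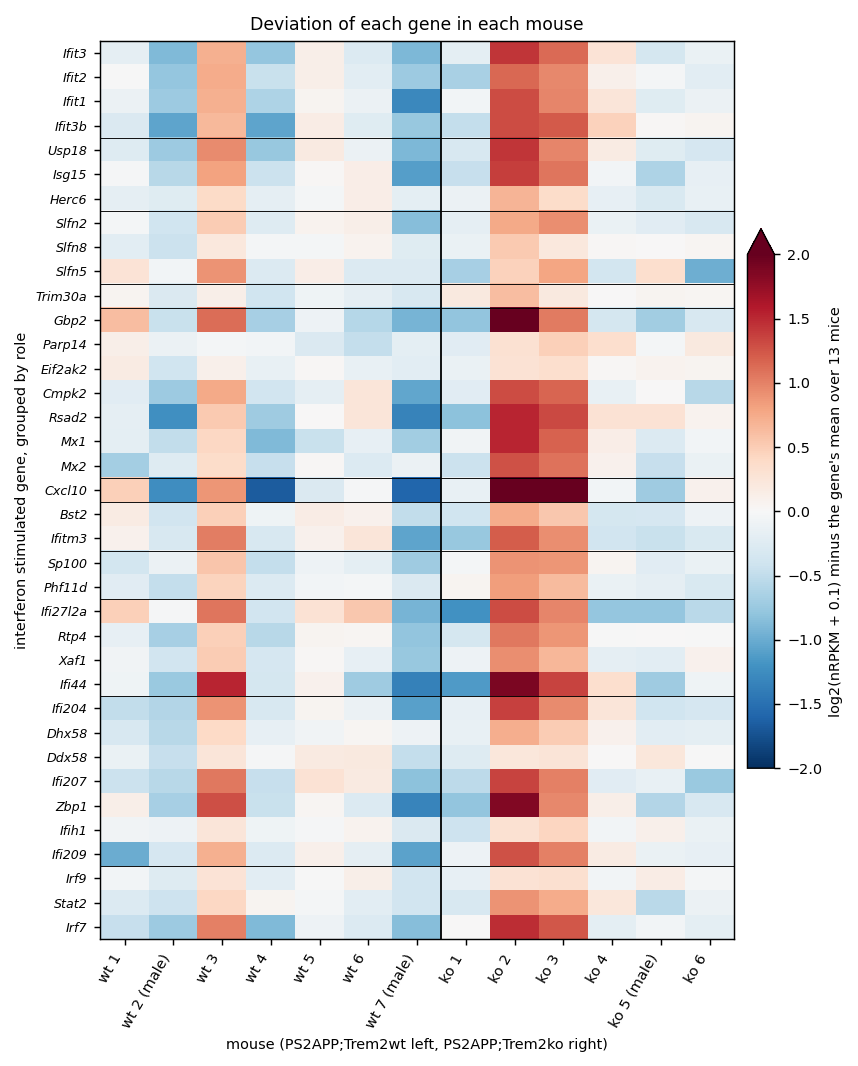
Log2(nRPKM + 0.1) of each gene in each mouse minus the gene's mean over 13 mice (colour, log2 units), with mice on the x axis, PS2APP;Trem2wt left of the line, and the 37 genes on the y axis grouped by role. The columns of PS2APP;Trem2wt mouse 3 and of PS2APP;Trem2ko mice 2 and 3 are red in nearly every row, and that of PS2APP;Trem2wt mouse 7, a male, is blue in most.

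The genotype difference moved with the mice included. The median log2 fold change of the 37 genes was 0.17 without PS2APP;Trem2ko mouse 2, 0.30 without PS2APP;Trem2ko mouse 3 and 0.64 without PS2APP;Trem2wt mouse 3. The number of genes higher at an unadjusted p of 0.05 by edgeR was 3 without PS2APP;Trem2ko mouse 2 (all genes tested in that fit, 6.98%) and 3 without PS2APP;Trem2ko mouse 3 (7.2%). It was 23 without PS2APP;Trem2wt mouse 3 (6.75%), 15 without PS2APP;Trem2ko mouse 1 (6%), 14 without PS2APP;Trem2ko mouse 5 (7.27%) or 6 (6.83%), and 4 without PS2APP;Trem2wt mouse 2 (7.12%), 4 (6.61%) or 7 (7.67%). No gene passed the adjusted p of 0.05 with any mouse left out.

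**Figure D3:**
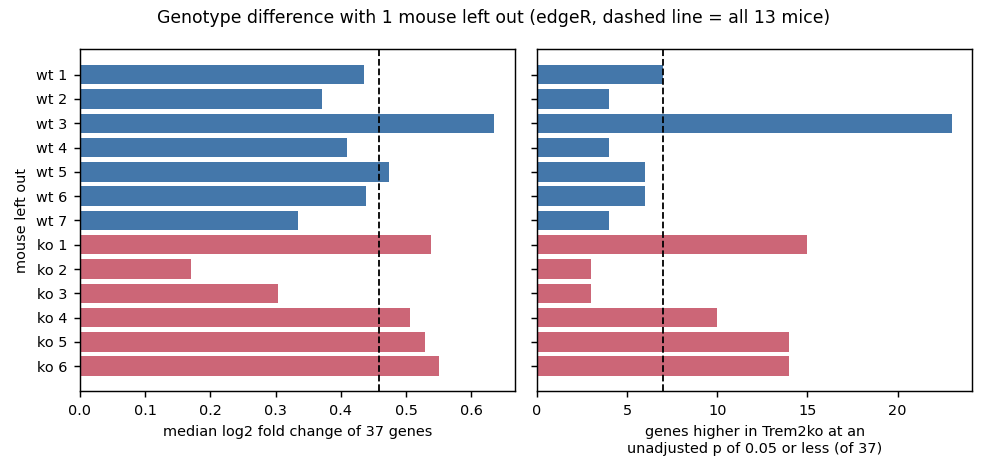
Median log2 fold change of the 37 genes (left, x axis in log2 units) and number of them higher in PS2APP;Trem2ko at an unadjusted p of 0.05 or less (right), each bar with the mouse on the y axis left out. The dashed lines mark 0.46 and 7, the values with all 13 mice; the median is lowest without PS2APP;Trem2ko mouse 2, the count is lowest without PS2APP;Trem2ko mouse 2 or 3, and both are highest without PS2APP;Trem2wt mouse 3.

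The transcription factors came first in the account by role. Irf7, which drives the expression of the interferon alpha genes, ranged from 4.48 to 16.9 nRPKM around a median of 6.09 in PS2APP;Trem2wt mice. In PS2APP;Trem2ko mice it ranged from 7.30 to 23.6 with a median of 8.22. All 6 PS2APP;Trem2ko mice stood above the PS2APP;Trem2wt median, 2 of them above every PS2APP;Trem2wt mouse, and the log2 fold change was 0.74 (SE 0.36), with an edgeR adjusted p of 0.358. Stat2, a subunit of ISGF3, had a low, median and high of 11.1, 12.8 and 19.7 nRPKM in PS2APP;Trem2wt and of 10.2, 15.6 and 27.6 in PS2APP;Trem2ko mice. Its lowest level was that of the male PS2APP;Trem2ko mouse, and its log2 fold change was 0.34 (SE 0.22, edgeR adjusted p = 0.499). Irf9, the DNA-binding subunit of ISGF3, varied little, from 21.4 over 26.7 to 33.8 nRPKM in PS2APP;Trem2wt and from 24.9 over 29.1 to 34.9 in PS2APP;Trem2ko mice. The groups lay over each other along most of this range (log2 fold change 0.16, SE 0.11, edgeR adjusted p = 0.552).

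All 7 sensors had a fitted log2 fold change above 0, from 0.09 to 0.66 with a median of 0.31, and edgeR adjusted p from 0.3504 to 0.787. Ddx58 (RIG-I), Ifih1 (MDA5) and Dhx58 (LGP2) recognise viral RNA, and their mean levels were 10.9, 4.69 and 11.1 nRPKM. Ddx58 and Ifih1 had the smallest log2 fold changes of the sensors, 0.13 (SE 0.13) and 0.09 (SE 0.13). Zbp1, which binds nucleic acid in the Z form and can start necroptosis, had a wide spread, from 1.68 to 10.7 nRPKM in PS2APP;Trem2wt and from 2.47 to 16.0 in PS2APP;Trem2ko mice. Ifi204, Ifi207 and Ifi209 belong to the PYHIN family, whose members bind DNA, and stand side by side on chromosome 1. Of the 50-base words of Ifi209, 33.7% also occur in other genes, mainly in Ifi214, and of those of Ifi204 20%, mainly in Ifi211, so their reads could not be placed with equal certainty.

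Isg15 encodes a ubiquitin-like protein that is attached to other proteins. In PS2APP;Trem2wt mice its level ran from 3.33 to 12.6 nRPKM with a median of 7.09, and in PS2APP;Trem2ko mice from 4.66 to 19.0 with a median of 6.72. The PS2APP;Trem2ko mice thus had the lower median and the higher mean, since 2 of them exceeded all others and 4 fell below the PS2APP;Trem2wt median. The log2 fold change was 0.46 (SE 0.36, edgeR adjusted p = 0.591). Usp18 removes Isg15 from its substrates and also shuts off signalling at the interferon receptor. It ran from 9.75 over 15.3 to 35.4 nRPKM in PS2APP;Trem2wt and from 14.4 over 18.0 to 49.5 in PS2APP;Trem2ko mice, the same 3 mice being the highest (log2 fold change 0.55, SE 0.35, edgeR adjusted p = 0.498). Herc6, the main ligase for Isg15 in mice, had a log2 fold change of 0.12 (SE 0.16).

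The 4 Ifit genes, whose proteins bind viral RNA and block its translation, lie together on chromosome 19. Their log2 fold changes ran from 0.46 for Ifit2 to 0.84 for Ifit3b. Ifit3 had a low, median and high of 8.38, 13.1 and 25.9 nRPKM in PS2APP;Trem2wt and of 12.3, 16.7 and 42.5 in PS2APP;Trem2ko mice. Here 5 of 6 PS2APP;Trem2ko mice stood above the PS2APP;Trem2wt median (log2 fold change 0.73, SE 0.33, edgeR adjusted p = 0.316). Ifit3b stood lower throughout, between 1.44 and 4.93 nRPKM around a median of 2.52 in PS2APP;Trem2wt mice. In PS2APP;Trem2ko mice it stood between 2.22 and 7.81 around a median of 3.78 (log2 fold change 0.84, SE 0.33, edgeR adjusted p = 0.240). These genes are close copies. Of the 50-base words of Ifit3, 51.2% recur in other genes, mainly in Ifit3b, and the near identity shows in the windows printed above, so how the reads were divided between them is uncertain.

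Among the 7 antiviral GTPases and enzymes, all had a fitted log2 fold change above 0, with a median of 0.57. Mx1, a dynamin-like GTPase that blocks influenza viruses, ran from 1.26 to 3.25 nRPKM with a median of 1.75 in PS2APP;Trem2wt mice. It ran from 1.98 to 7.10 with a median of 2.48 in PS2APP;Trem2ko mice, all of which exceeded the PS2APP;Trem2wt median. The log2 fold change was 0.90 (SE 0.31), with an edgeR adjusted p of 0.169. Mx1 and Mx2 are inactivated by mutations in C57BL/6 and most other laboratory strains, so the transcript level says nothing of a working protein here.

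Parp14, an ADP-ribosyltransferase, kept apart from most of the others in PS2APP;Trem2wt mice. Its low, median and high were 4.04, 5.22 and 6.12 nRPKM in PS2APP;Trem2wt and 4.82, 6.71 and 7.85 in PS2APP;Trem2ko mice. The highest PS2APP;Trem2wt value was that of mouse 1, not mouse 3, and 4 of 6 PS2APP;Trem2ko mice exceeded it (log2 fold change 0.33, SE 0.12, edgeR adjusted p = 0.176). Gbp2 is a guanylate-binding protein that attacks the vacuoles of intracellular pathogens. It ranged from 3.78 over 5.32 to 15.9 nRPKM in PS2APP;Trem2wt and from 4.20 over 5.78 to 31.9 in PS2APP;Trem2ko mice. Only PS2APP;Trem2ko mouse 2 lay above every PS2APP;Trem2wt mouse, and without it the log2 fold change of 0.57 (SE 0.49, edgeR adjusted p = 0.634) became -0.10. Rsad2 (viperin) and Cmpk2, adjacent genes for enzymes of antiviral nucleotide metabolism, had log2 fold changes of 0.92 (SE 0.38) and 0.57 (SE 0.34), and Mx2 had 0.60 (SE 0.30). Eif2ak2, the RNA-activated kinase PKR, had a small spread and a log2 fold change of 0.19 (SE 0.10); it lies on chromosome 17, which also carries Trem2, 30.5 Mb away.

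The most abundant of the 37 genes per length encode membrane proteins that hold viruses back. Bst2 (tetherin), which ties budding virus to the cell surface, ran from 55.0 to 108 nRPKM with a median of 82.6 in PS2APP;Trem2wt mice. In PS2APP;Trem2ko mice it ran from 58.9 to 131 with a median of 67.4. The upper end of the PS2APP;Trem2ko range was again mice 2 and 3, and the other 4 lay below the PS2APP;Trem2wt median. Its log2 fold change of 0.07 (SE 0.21, edgeR adjusted p = 0.912) was -0.10 without PS2APP;Trem2ko mouse 2. Ifitm3, which stops virus at the endosomal membrane, showed the same form, with 19.0, 41.9 and 81.1 nRPKM as low, median and high in PS2APP;Trem2wt and 23.5, 31.4 and 91.9 in PS2APP;Trem2ko mice. The medians thus ran opposite to the fitted log2 fold change of 0.16 (SE 0.35, edgeR adjusted p = 0.883), which was -0.14 without PS2APP;Trem2ko mouse 2. Of the 50-base words of Ifitm3, 10% also occur in other genes.

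Cxcl10, a chemokine that attracts T cells and natural killer cells through Cxcr3, had the largest fitted difference and the largest spread. It ranged from 2.56 to 15.4 nRPKM with a median of 6.78 in PS2APP;Trem2wt mice. In PS2APP;Trem2ko mice it ranged from 5.07 to 37.7 with a median of 8.42. PS2APP;Trem2ko mice 2 and 3 had 37.7 and 36.6 nRPKM, while the other 4 did not exceed 8.85. The log2 fold change was 1.25 (SE 0.54), with an edgeR adjusted p of 0.288. Ifi44, of unknown molecular function, was the least abundant gene, from 0.289 over 0.674 to 2.73 nRPKM in PS2APP;Trem2wt and from 0.349 over 0.988 to 3.56 in PS2APP;Trem2ko mice. The same 3 mice stood above the rest, and the log2 fold change was 0.66 (SE 0.56, edgeR adjusted p = 0.640).

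Trim30a, which restrains Toll-like receptor signalling, had the lowest p of the group. It ran from 14.1 over 16.6 to 20.4 nRPKM in PS2APP;Trem2wt and from 18.9 over 20.5 to 28.6 in PS2APP;Trem2ko mice. All 6 PS2APP;Trem2ko mice stood above the PS2APP;Trem2wt median and 3 above every PS2APP;Trem2wt mouse (log2 fold change 0.35, SE 0.11, edgeR adjusted p = 0.135). Slfn2, a Schlafen gene needed for quiescence of T cells and monocytes, ran from 20.6 over 36.2 to 52.9 nRPKM in PS2APP;Trem2wt and from 29.8 over 33.5 to 71.3 in PS2APP;Trem2ko mice. Its PS2APP;Trem2ko median was the lower one (log2 fold change 0.30, SE 0.24, edgeR adjusted p = 0.603). Slfn5 and Slfn8 had log2 fold changes of -0.06 (SE 0.29) and 0.21 (SE 0.12).

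The nuclear proteins Sp100, a component of PML bodies, and Phf11d had log2 fold changes of 0.47 (SE 0.23) and 0.33 (SE 0.19). Xaf1, a promoter of apoptosis, and Rtp4 had 0.39 (SE 0.22) and 0.52 (SE 0.25). Ifi27l2a, a small mitochondrial protein, was the only gene besides Slfn5 with a fitted log2 fold change under 0, at -0.11 (SE 0.41). Its median was 41.2 nRPKM in PS2APP;Trem2wt and 21.4 in PS2APP;Trem2ko mice, the widest gap downward among the 37 genes, and yet its highest level, 82.8 nRPKM, was that of PS2APP;Trem2ko mouse 2.

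**Figure D4:**
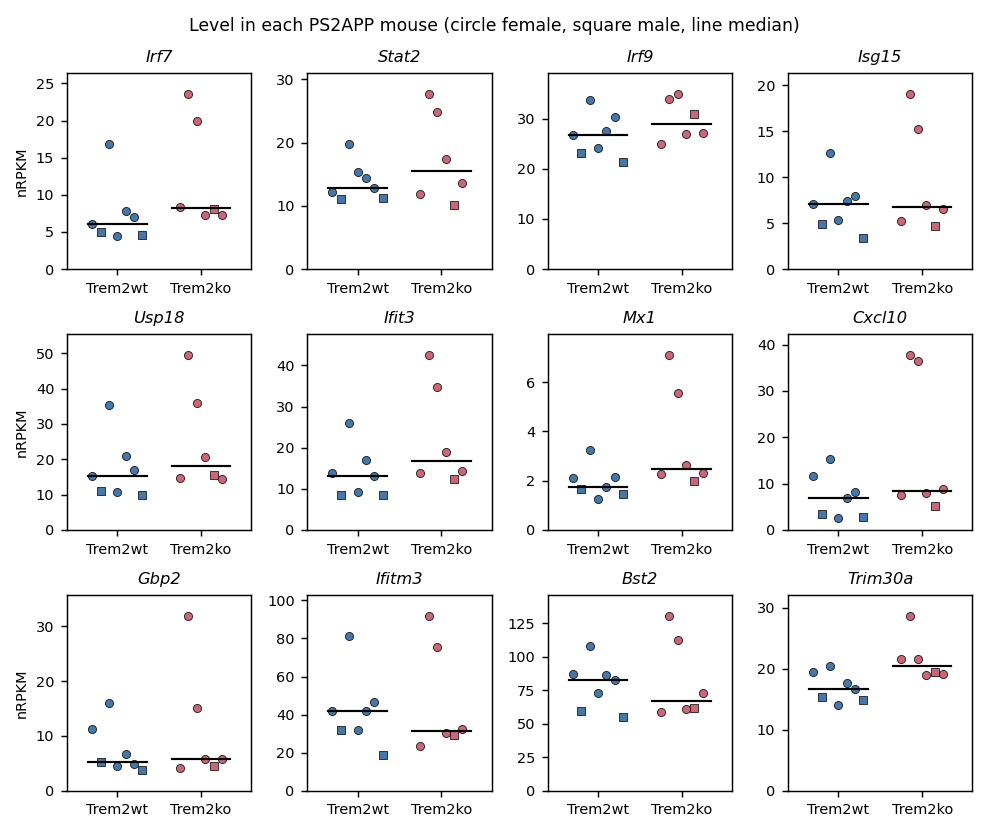
Level in nRPKM (y axis, from 0) of 12 of the genes in each PS2APP;Trem2wt (blue) and PS2APP;Trem2ko (red) mouse; circles are females, squares males and lines medians. In most panels 2 red circles and 1 blue circle stand above the rest, as for Cxcl10, where the 2 red circles are at 37.7 and 36.6 nRPKM and the other red points at 8.85 or below.

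The genes varied together between mice of 1 genotype. For each gene, Pearson's r over the mice of a genotype was taken between its log2(nRPKM + 0.1) and the mean of the other 36 genes. In the 7 PS2APP;Trem2wt mice the median r was 0.92, and 31 of the 37 genes exceeded 0.8. Among the other genes tested 2.59% did, with a median of 0.03. Usp18 (0.98), Xaf1 (0.98), Ifit1 (0.98) and Isg15 (0.98) followed the group most closely, and Parp14 (0.08) and Mx2 (0.55) least. In the 6 PS2APP;Trem2ko mice the median r was 0.96 and 33 of the 37 exceeded 0.8 (other genes tested, 4.01%, median -0.02). Ddx58 had the lowest r there (0.67), and Ifi209 (0.99) and Ifitm3 (0.99) the highest. Parp14 had an r of 0.72 in these mice.

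Values without the mice at the ends were lower in both genotypes. Without PS2APP;Trem2wt mice 3 and 7, the pair farthest from the group's median, the median r was 0.79 over 5 mice and 17 of the 37 genes exceeded 0.8 (other genes tested, 4.58%). Ifit1 had an r of 0.998 there, Rtp4 of 0.99 and Ifit3b of 0.98. Without PS2APP;Trem2ko mice 2 and 3, the median r was 0.61 over 4 mice and 7 of the 37 exceeded 0.8 (other genes tested, 9.73%), among them Ifit3b (0.98), Zbp1 (0.98) and Ifi44 (0.94). Irf7 (-0.85) and Trim30a (-0.87) then ran against the others. Leaving out the mice at the ends of the genes' own mean narrows its range and lowers r by construction, and few mice remain, so these values are a description. No p is attached to these r, and the mice of a genotype differ in depth.

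Pairs of genes gave the same picture. Over all 666 pairs the median r was 0.83 in PS2APP;Trem2wt and 0.92 in PS2APP;Trem2ko mice, and 14 pairs in PS2APP;Trem2wt and 0 in PS2APP;Trem2ko mice were below 0. After each genotype's mean was taken off, the first principal component held 88.9% of the variance of the 37 genes, against 17.6% over all genes tested. These sets differ widely in size and make-up, so the shares are not like for like. The spread itself was large. The pooled SD of log2(nRPKM + 0.1) between mice of a genotype had a median of 0.60 over the 37 genes, 0.25 over all genes tested, and 0.19 over those with a mean of at least 1 nRPKM. It ran from 0.19 for Eif2ak2 to 1.13 for Cxcl10. The SD within a genotype was larger in PS2APP;Trem2ko than in PS2APP;Trem2wt mice for 33 of the 37 genes (median 0.70 against 0.46). Over all genes tested this held for 8135 of 17086 (median 0.24 against 0.25). The 37 genes share their mice, and PS2APP;Trem2ko mice 2 and 3 were among the 3 highest in 36 and 37 of them.

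**Figure D5:**
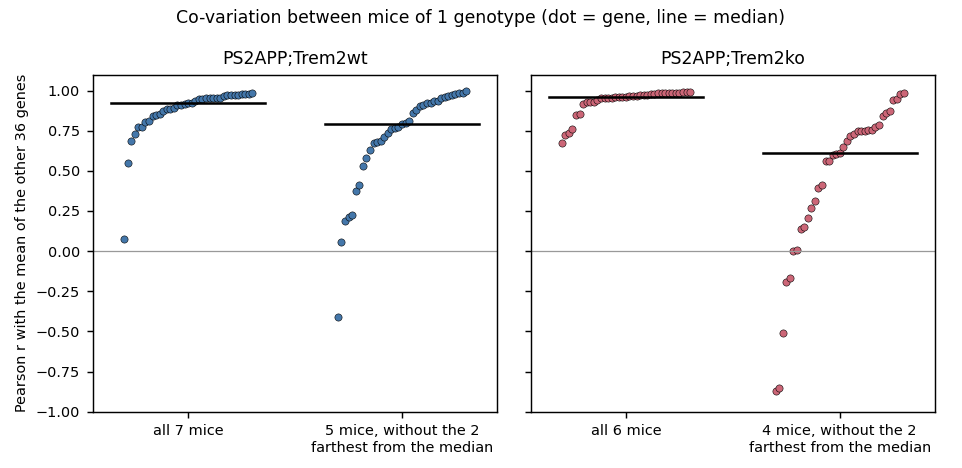
Pearson's r (y axis, no unit) of each of the 37 genes with the mean of the other 36 between mice of 1 genotype, over all mice and without the pair of mice farthest from the median (x axis). Medians, drawn as lines, are 0.92 and 0.79 in PS2APP;Trem2wt and 0.96 and 0.61 in PS2APP;Trem2ko mice.

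Ifit3 was set against other genes of interest in the 7 PS2APP;Trem2wt mice, part of a family of 20 relations, with two-sided exact permutation p over mice adjusted over the family. With Irf7, r was 0.95 (exact permutation p = 0.00437, adjusted 0.0172) and Spearman's rho 0.857 (exact permutation p = 0.0238, adjusted 0.0680). Each r was also taken without the 2 mice farthest from the median of the gene compared with Ifit3. That pair could differ between genes, and without it r was 0.95 for Irf7. With Stat2, r was 0.77 (exact permutation p = 0.0579, adjusted 0.0891) and rho 0.714 (exact permutation p = 0.0881, adjusted 0.136), and r was 0.94 without 2 mice. Trem2 itself, at r = 0.24 (exact permutation p = 0.597, adjusted 0.664) and rho = 0.214 (exact permutation p = 0.662, adjusted 0.735), showed no relation that 7 mice could resolve, and its r was -0.36 without 2 mice. Cst7, a gene of plaque-associated microglia, had r = 0.62 (exact permutation p = 0.133, adjusted 0.177) and rho = 0.321 (exact permutation p = 0.498, adjusted 0.663), with r = 0.31 without 2 mice. The other 10 relations of the family were in the 6 PS2APP;Trem2ko mice, of which 2 stand high and 4 do not, so that a pooled r there measures mainly the gap between them. In PS2APP;Trem2wt mice 6 of the 10 relations had an adjusted permutation p of 0.05 or less for r and 3 for rho. Of the 10 in PS2APP;Trem2ko mice, 5 did for r and 2 for rho. With Stat2, r was 0.98 and rho 1 (exact permutation p = 0.00278, adjusted 0.0172 for r and 0.0185 for rho), and r was 0.98 among the other 4 mice. With Irf7, r was 0.94 (exact permutation p = 0.0806, adjusted 0.115) and rho 0.543 (exact permutation p = 0.297, adjusted 0.425), and r was -0.65 among the other 4 mice.

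Among the 10 genes outside the list with the highest r to its mean over all 13 mice, after each genotype's mean was taken off, were Oas1a (0.99), Oasl2 (0.97), B2m (0.96), H2-T23 (0.96), H2-M3 (0.96), Irgm1 (0.95), Oas3 (0.95), C4b (0.95) and Creb3 (0.94). Oas1a, Oas3 and Oasl2 belong to the 2-5A synthetase family and B2m, H2-T23 and H2-M3 to class I antigen presentation. None of the 10 passed the adjusted p between genotypes (all genes tested, 2.04%). By edgeR only C4b, complement component 4, had an unadjusted p under 0.05, as higher (all genes tested, 7.29%). Its log2 fold change was 1.18 (SE 0.52, edgeR adjusted p = 0.293).

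The rest of the pathway was read from lists written for it. Of 10 interferon genes, only Ifnb1 passed the filter, with 0 to 52 counts per mouse, 4 mice at 0, and a log2 fold change of 1.05 (SE 0.91, edgeR adjusted p = 0.643). Ifna1, Ifna4, Ifna5, Ifnk and Ifne had 0 counts in all 13 mice, which allows up to 0.0249 to 0.115 CPM depending on the mouse. Ifng, the type II interferon, had 0 counts in 9 mice and at most 75. Of 8 receptor and kinase genes tested none passed the adjusted p, and the median log2 fold change was 0.04. At an unadjusted edgeR p of 0.05, 1 of the 8 (Ifnar2) was lower (all genes tested, 7.56%). Ifnar1 ranged from 22.5 to 29.6 nRPKM in PS2APP;Trem2wt and from 21.6 to 34.0 in PS2APP;Trem2ko mice. For Ifnar2 the log2 fold change was -0.15 (SE 0.07, edgeR adjusted p = 0.321).

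Genes that induce interferon gave 0 of 15 past the adjusted p, 2 of them higher at an unadjusted p of 0.05 by edgeR (all genes tested, 7.29%). These were Irf3, the factor that starts Ifnb1 transcription (log2 fold change 0.22, SE 0.09), and Ticam1, the adaptor of Tlr3 and Tlr4 (0.29, SE 0.12). Of 8 brakes on the pathway tested, none passed the adjusted p, and 1 was higher at an unadjusted edgeR p of 0.05 (all genes tested, 7.29%). This was the nucleotide hydrolase Samhd1 (log2 fold change 0.26, SE 0.11, edgeR adjusted p = 0.277). A further list of 37 tested interferon stimulated genes had 32 with a log2 fold change above 0, a median of 0.20, and none past the adjusted p. At an unadjusted p of 0.05 by edgeR, 4 of them were higher and 1 lower (all genes tested, 7.29% and 7.56%). Parp12 had 0.36 (SE 0.11, edgeR adjusted p = 0.132). Ifitm2, a relative of Ifitm3, ran the other way at -0.74 (SE 0.29, edgeR adjusted p = 0.226). Of 15 GTPases associated with interferon gamma, 14 had a log2 fold change above 0 and 4 an unadjusted edgeR p of at most 0.05 as higher, Gbp4, Gbp6, Gbp8 and Gbp9 (all genes tested, 7.29%), and none passed the adjusted p. The list of 2-5A synthetases, which answer double-stranded RNA by making short oligoadenylates, was the exception with 2 of 9 passing the adjusted p as higher (all genes tested, 0.503%). Oas2 ran from 0.362 to 1.58 nRPKM in PS2APP;Trem2wt and from 1.27 to 6.33 in PS2APP;Trem2ko mice (log2 fold change 2.06, SE 0.43, edgeR adjusted p = 0.0204), and Oas1b had 1.38 (SE 0.33, edgeR adjusted p = 0.0437).

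Levels of other marker genes were set beside the mice that stood high. The summed level of 8 T and natural killer cell markers was 5.35 nRPKM in PS2APP;Trem2wt mouse 3, the top of a range of 0.556 to 5.35. It was 8.001 in PS2APP;Trem2ko mouse 2 and 4.33 in mouse 3, in a range of 0.476 to 8.001. Only 1 of these markers reached a mean of 1 nRPKM, and none had 0 counts in all mice. Monocyte markers summed to 11.96, 9.14 and 20.2 nRPKM in the same 3 mice, in ranges of 2.87 to 25.2 for PS2APP;Trem2wt and 3.50 to 20.2 for PS2APP;Trem2ko mice. Border macrophage markers summed to 28.9, 21.7 and 47.9, in ranges of 11.0 to 32.7 and 18.8 to 47.9. Plasmacytoid dendritic cell markers, of which Klk1 had 0 counts in every mouse, summed to 61.3, 43.1 and 38.7, in ranges of 29.0 to 61.7 and 15.8 to 43.1. Cox6a2 had the highest medians of these markers, 26.4 nRPKM in PS2APP;Trem2wt and 16.9 in PS2APP;Trem2ko mice, followed by Tcf4 (8.67 and 8.28). Ccr9 did not exceed 0.182 nRPKM in any mouse. Pacsin1 was itself called lower in PS2APP;Trem2ko mice (log2 fold change -1.65, edgeR adjusted p = 0.00014). Immediate early genes, which rise when cells are disturbed, summed to 307, 329 and 241, in ranges of 143 to 399 and 157 to 510. The part of these cells and of handling in the interferon stimulated genes was not tested. The 8 plaque-associated microglia genes, all called lower in PS2APP;Trem2ko mice, summed to 2419 in PS2APP;Trem2wt mouse 3, the highest of any mouse, but to 341 and 306 in PS2APP;Trem2ko mice 2 and 3, in a range of 184 to 367.

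Sex was looked at after the data were seen, because all 3 of the mice that stood high were female. In an edgeR fit with genotype and sex, all 37 genes had a fitted level lower in males than in females (all genes tested, 49.4%), with a median log2 difference of -0.64. At an unadjusted p of 0.05 by edgeR, 15 of the 37 were lower in males (all genes tested, 3.49%), and none passed the adjusted p, whose smallest value was 0.713. Cxcl10 (-1.70) and Ifi44 (-1.64) had the largest differences and Slfn5 (-0.10) the smallest. In PS2APP;Trem2wt mice the 2 males, at -0.73 and -0.51 in mean log2 deviation of the 37 genes, lay below all 5 females, which ran from -0.43 to 0.63. The 1 PS2APP;Trem2ko male, at -0.21, lay within the females' range of -0.34 to 1.08. With 3 males in all, this comparison rests on few animals. It was prompted by the values of these same genes, which varied together between mice, so the counts are not 37 separate observations. Fitting sex beside genotype left the median log2 fold change between genotypes at 0.35, and females alone gave 0.37. With 1 PS2APP;Trem2ko male, whether the sexes differed alike in both genotypes could not be judged. The smallest edgeR interaction p was that of Ddx58 (unadjusted 0.00625, adjusted 0.397), in a fit where that male is assumed to vary like the other groups.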

How the data were processed

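RNA-Seq of sorted brain myeloid cells from 13 mice was analysed. Sources give SMART-seq v4 libraries, single-end reads of 50 bases, removal of adapter, low-quality and rRNA reads, and alignment to GRCm38 with GSNAP. The authors deposited, per mouse and gene, raw read counts and nRPKM, which is RPKM adjusted by a size factor. Whether counting used the strand is not given in the sources used here. Genes were matched by Ensembl identifier to GENCODE M21 on GRCm38, which named 52403 of 52636.

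Groups and sex were taken from the labels, and mice were numbered in accession order. Counts were fitted with edgeR 4.0.16 (R 4.3.3) by filterByExpr, TMM scaling, glmQLFit and glmQLFTest on genotype, with the study's voom and limma as an alternative. The SE is the log2 fold change divided by the square root of F. Levels were put on a log2(nRPKM + 0.1) scale. The common biological coefficient of variation was 0.299. The limit given for a count of 0 (3 counts) covers counting error only, and p-values measure the spread between mice. Alternatives were DESeq2 1.42.0, voom with limma 3.58.1, limma on log2 of nRPKM with 0.1 or 1 added, RLE scaling, 2 other filters (none, or 10 counts in 6 mice), a sex covariate, the females alone, and each mouse left out. Leaving out the 2 mice farthest from the median and the fit of sex were chosen after seeing the data. Each fit was first tested on simulated counts. Of genes simulated with a log2 change of 1 in either direction, edgeR called 61.1%, and of those with a change of 2 it called 92.5%. Smaller changes, such as the median of 0.46 over the 37 genes, were not simulated.

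The members and all gene lists were chosen with earlier results of these data known. Values by mouse are given for the 4 genes of lowest p, the 3 of highest mean nRPKM, the 3 of largest spread, the 3 transcription factors and 7 genes that head their roles, and outside the list for the 10 genes nearest to its mean and, per pathway list, genes called and up to 4 others of lowest p. Zbp1, Ifi27l2a, Ifnar1 and Ifng fall outside this rule and were chosen after their values were seen. Some genes outside the 37 that this rule names are not reported here. The 13 samples were distinct: counts of 36 within-genotype pairs differed by 19.6 to 214 times the sampling noise in chi-square.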

Additional observations from a re-analysis of the deposited data

Results flagged for a closer look

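Within groups of 6 or 7 mice, the gap of the highest or lowest mouse to its neighbour, over the whole range, was set against Dixon's 95% critical value for the 16 genes given by mouse and the mean of all 37 genes. Of 34 groups 3 stood out. The critical value flags about 1 in 20 groups that are independent and normally distributed. These genes varied together in the same mice, so the number flagged cannot be set against that rate. Irf7 was at 16.9 nRPKM in PS2APP;Trem2wt mouse 3, with the next mouse at 7.83. Ifi44 was at 2.73 nRPKM in the same mouse, with the next at 0.955. Trim30a was at 28.6 nRPKM in PS2APP;Trem2ko mouse 2, with the next at 21.5. No explanation was tested for these values.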

How the results depend on the processing

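No gene of the 37 passed the adjusted p of 0.05 under any of the alternatives except DESeq2, which called 2 higher. The number higher at an unadjusted p of 0.05, 7 by edgeR, was 2 by voom and limma (all genes tested, 7.99%), 13 with no filter (6.73%), 3 in females only (7.57%), and 3 to 23 with 1 mouse left out, the low end without PS2APP;Trem2ko mouse 2 or 3 and the high end without PS2APP;Trem2wt mouse 3. The median log2 fold change, 0.46, ran from 0.28 (voom and limma) to 0.47 (no filter), and from 0.17 to 0.64 with 1 mouse left out, and 29 to 37 genes had a value above 0. Median r within PS2APP;Trem2wt mice, 0.92, was 0.79 without the 2 mice farthest from the median, and 0.85 to 0.95 with 1 mouse left out. Within PS2APP;Trem2ko mice, 0.96 became 0.83 by Spearman's rho and 0.61 without 2 mice, and ran from 0.93 to 0.98 with 1 left out. Of 352 log2 fold changes of the 16 genes given by mouse under 22 alternatives, 343 kept their direction and side of the threshold and 7 changed sign. Bst2 was -0.00557 in females only and ran from -0.10 to 0.16 with 1 mouse left out, Ifitm3 from -0.14 to 0.40 and Gbp2 from -0.10 to 0.87. The cause was not tested. No paired analysis was possible because the labels do not say which mice belong together. By the study's methods 1 mouse of each genotype was generally handled alongside the other up to sorting, so handling pairs exist that no fit and no r here takes into account. Depth limits the interferon genes themselves, most of them at or near 0 counts; the lowest count of the 37 genes was 55.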
